A study of Drosophila melanogaster with 6 samples.

Results

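The 5 genes described here encode alcohol and aldehyde dehydrogenases of *Drosophila melanogaster* or their close relatives: Aldh, Aldh-III, Adh, Adhr and Fdh. They were picked by name, and all 5 were found among the 14862 genes of the authors' deposited table. Aldh was included because its change at a high average level had already been seen in the same table, so its fold change and the authors' p-value are given as a description and not as a new test. RNA had been sequenced from stage 14 oocytes, the last stage of oogenesis, in pools of 200. Per the labels, 3 samples came from flies of genotype InR-DN, used by the submitters to suppress insulin signalling, and 3 from flies of genotype GFP control. Flies of both genotypes were kept on standard food with added yeast paste. The driver of the transgenes, the strain background and the age of the flies do not appear in the sources used here. InR is the insulin receptor, and the comparison asks which oocyte transcripts differ when its signalling is lowered.

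Flies feed on fermenting fruit, and these enzymes handle the alcohols and aldehydes that come with it. Adh oxidises ethanol to acetaldehyde, Aldh oxidises acetaldehyde to acetate, and acetate is then joined to coenzyme A and enters lipid synthesis or respiration. Unlike the zinc enzyme of mammals, fly Adh is a short-chain dehydrogenase that needs no metal, and it is best known from the fat body and gut. Fdh is the zinc-dependent member of the group and clears formaldehyde as its adduct with glutathione, while Aldh-III belongs to the class that oxidises longer fatty aldehydes.

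The authors' deposited table compares 2 groups gene by gene and gives no value per sample. The depth of each library is therefore unknown, and levels in InR-DN and in GFP oocytes cannot be given apart. It does not state which group stands on top of the fold change, so a positive or negative sign is reported as deposited and is assigned to neither genotype. Its title names embryos where the labels name oocytes, and the labels of the InR-DN samples also use the word progeny. Maternal transcripts that mark an oocyte were abundant in the authors' deposited table, with an average of 9.76 log2 CPM (reads of a gene scaled to library size) for osk, 7.85 for nos and 6.19 for bcd. It is not known which libraries enter these averages. They show maternal RNA but do not tell an oocyte from an early embryo. An SE was implied for each gene from its fold change and likelihood ratio, and 95% intervals are 1.96 of these SE on either side. Such an SE rests on the fitted model, since no spread between pools could be measured. Nothing in the labels ties the pools to separate crosses, so the p-values measure the spread between these samples, which may be technical.

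Aldh, the acetaldehyde-oxidising enzyme, was the 1 called gene of the 5. The authors' deposited table gave it a log2 fold change of 1.45 (implied SE 0.19) at an average of 7.20 log2 CPM, or 147 CPM. That is a 2.74-fold difference between the groups, with a 95% interval from 2.11 to 3.56, computed from the authors' deposited table. The likelihood ratio test of the authors' deposited table gave Aldh an adjusted p of 6.4e-12, which placed it at rank 107 of all genes by p. Calls at an adjusted p under 0.05 made up 5.1% of tested genes, 667 of 13080, where a tested gene is one with a likelihood ratio above 0, and split into 2.61% positive and 2.48% negative. Because Aldh was chosen for this change, the count of 1 in 5 is not read against that share.

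Fdh, the formaldehyde-clearing enzyme, had nearly the same average CPM as Aldh, not scaled to gene length, and was not called. Its average was 7.20 log2 CPM in the authors' deposited table, and its log2 fold change was 0.08 (implied SE 0.18, adjusted p = 1). The 95% interval of Fdh ran from 0.828-fold to 1.35-fold, computed from the authors' deposited table.

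Aldh-III, the fatty aldehyde enzyme, was listed at -0.09 on the log2 scale per the authors' deposited table (implied SE 0.21, adjusted p = 1), with an average of 5.47 log2 CPM. Its interval, computed from the authors' deposited table, extended from 0.707-fold to 1.25-fold. The second aldehyde dehydrogenase of the group was thus not called. Whether the fold changes of Aldh and the other genes differ was not tested, because Aldh was picked for its value.

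Adh, the ethanol-oxidising enzyme, was listed at -0.14 on the log2 scale per the authors' deposited table (implied SE 0.22, adjusted p = 1) and an average of 7.35 log2 CPM. Adhr, a relative of Adh with no well-established enzymatic activity, also had -0.14 per the authors' deposited table (implied SE 0.22, adjusted p = 1) and 7.35 log2 CPM. The fold changes of Adh and Adhr differed by 0.00053 on the log2 scale and their averages by 0.26 CPM, computed from the authors' deposited table. Both fold changes are small and negative, and they are too close to be read as separate measurements.

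**Figure D1:**
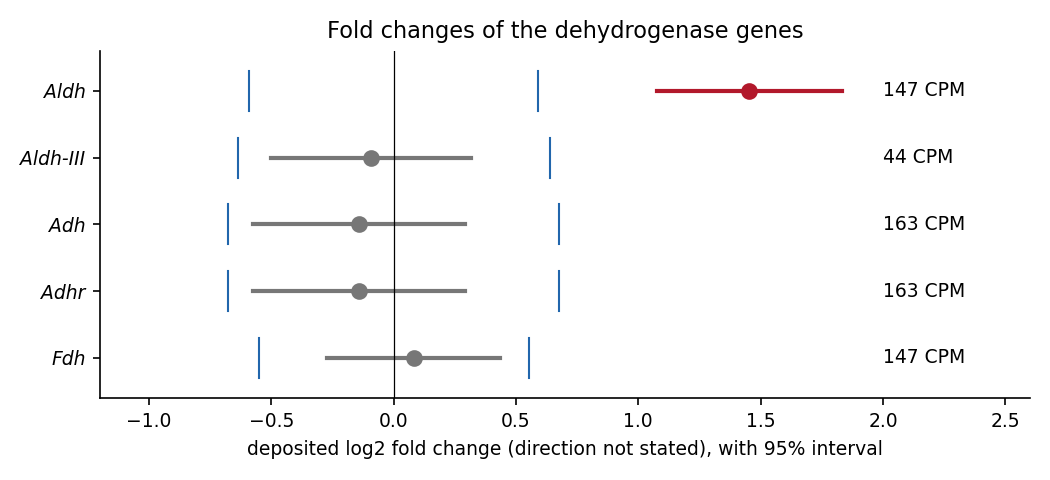
Log2 fold changes of the 5 genes in the authors' deposited table (points) with 95% intervals from the implied SE (bars), against log2 fold change on the x axis; the average CPM stands at the right. Vertical blue ticks mark the smallest change in either direction that would have been called at that gene's implied SE, from 0.55 for Fdh to 0.68 for Adh, and the red point of Aldh at 1.45 lies beyond its tick at 0.59.

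Adh and Adhr are neighbours on chromosome arm 2L and are known to be transcribed together, with Adhr read from a long transcript that also carries the Adh coding sequence. In the Ensembl release 115 annotation of BDGP6.54, Adh has 5 transcripts from 2 start sites, of which 2 run on through the Adhr exons and 3 end before them. Adhr has 3 transcripts, of which 1 starts downstream of the short Adh transcripts. All 2116 exonic bases of Adhr are also exonic bases of Adh, and 138 of the 2254 exonic bases of Adh lie outside Adhr. The authors' annotation is not given in the sources used here and may draw the boundary elsewhere. Reads of the locus can be counted under either name, so the fold change of Adhr is not a second result, and the larval and adult start sites of Adh cannot be told apart.

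**Figure D2:**
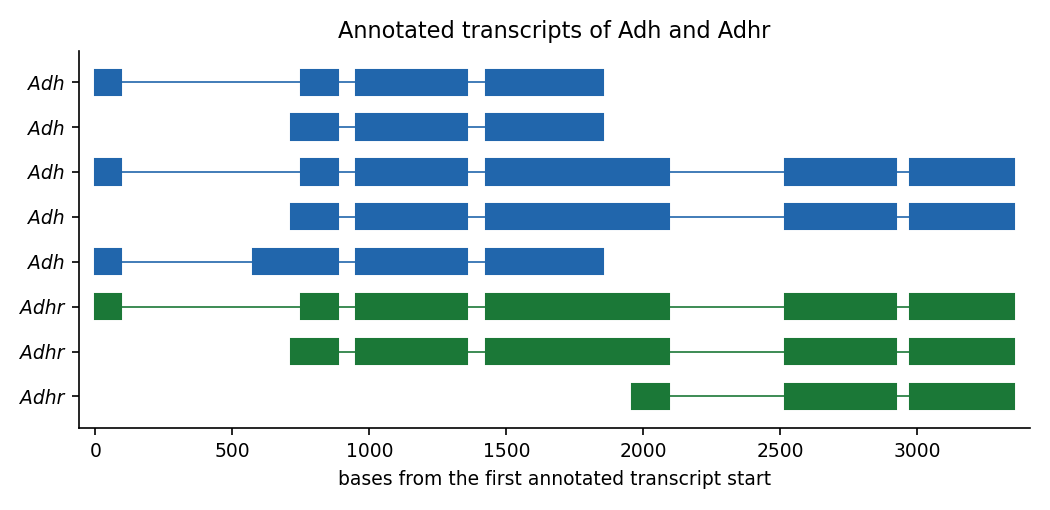
Annotated transcripts of Adh (blue, 5) and Adhr (green, 3), with exons as boxes and introns as lines, against distance in bases from the first annotated start. The exons of Adhr lie wholly inside exons of the long Adh transcripts, and the average levels of both genes in the authors' deposited table were 163 CPM.

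How small a change could have been called differs little among the genes. At their implied SE, a change of 1.47-fold would have been called for Fdh, 1.50-fold for Aldh, 1.56-fold for Aldh-III and 1.60-fold for Adh, computed from the authors' deposited table. The Aldh change was 2.46 times that limit on the log2 scale. For the 4 genes without a call, no 95% interval reached a 2-fold change, and they ran from 0.672-fold to 1.35-fold at their outer bounds. Smaller changes in Adh, Adhr, Aldh-III and Fdh were not detectable at this precision. Because CPM does not allow for gene length, levels were also divided by the exonic length in BDGP6.54. On that scale the averages were 110 CPM per kb for Fdh, 77.0 for Adhr, 72.4 for Adh, 71.1 for Aldh and 12.3 for Aldh-III, computed from the authors' deposited table. Adh and Adhr share exons and had nearly the same CPM, so their values per kb differ mainly through the length used. The value of Adhr is not a separate level. No spread over samples is known for these levels, so the order of neighbours among them was not tested.

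Changes were uncommon among genes as abundant as Aldh. Of 2399 tested genes whose average lay within 1 log2 CPM of that of Aldh, 21 were called, which is 0.875%, with 12 positive and 9 negative in the authors' deposited table. By p, Aldh was at rank 3 of the 21. Because Aldh was picked for its change at a high average level, its place among these genes follows from that choice and is only a description. Ahead of it in the authors' deposited table were Scgdelta, a sarcoglycan of the dystrophin complex, at 4.95 and Oatp58Dc, an organic anion transporter, at -3.26. Next came CG31928 at 1.37 and CG18446 at 1.0, followed by ds, which encodes the cadherin Dachsous of planar polarity, at 1.89 in the authors' deposited table. A larger absolute change than that of Aldh was listed for 19 of the 2399 genes, of which 3 were called and 16 were not, as computed from the authors' deposited table. The implied SE of Aldh, 0.19, was slightly below the median of 0.21 over these genes. Since the table holds 1 comparison, no profile across samples exists by which likeness to Aldh could be measured further.

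**Figure D3:**
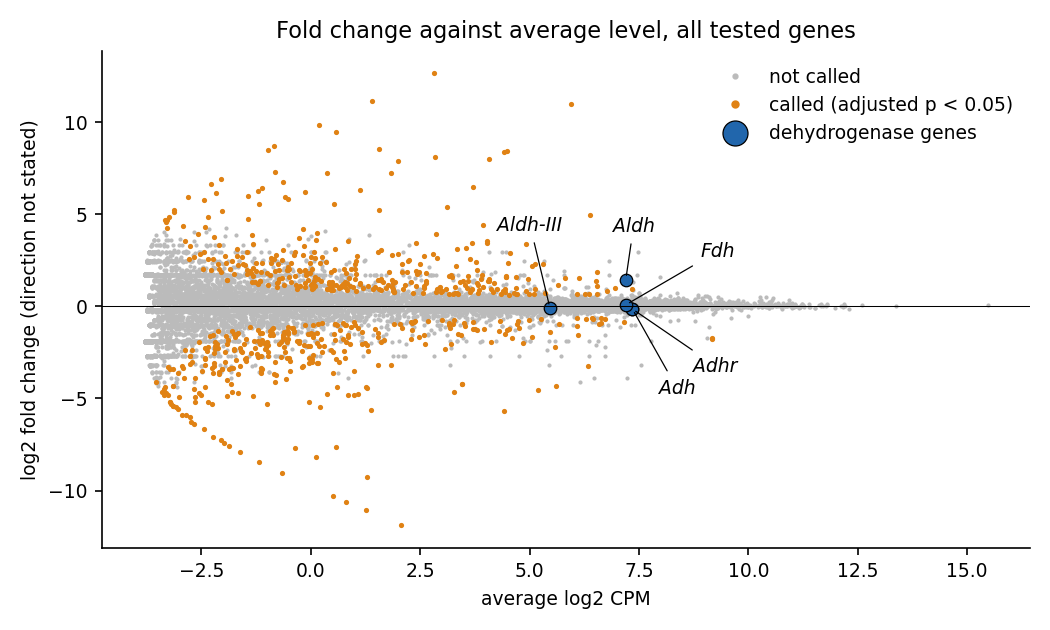
Log2 fold change against average log2 CPM for the 13080 tested genes in the authors' deposited table, with genes not called in grey, called genes in orange and the 5 dehydrogenase genes in blue. Aldh, picked for its change, stands above most grey genes at its level, where 19 of 2399 had a larger absolute change. Fdh, Adh, Adhr and Aldh-III lie near 0, and called genes are concentrated at low averages.

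Aldh lies inside another gene that was called. In the BDGP6.54 annotation it sits on chromosome arm 2L within an intron of Shawl, a Shaw-like voltage-gated potassium channel gene on the opposite strand, in both annotated Shawl transcripts. The authors' deposited table gave Shawl a log2 fold change of -9.27 (adjusted p = 1.7e-63), opposite in sign to Aldh, at a low average of 1.28 log2 CPM. A fold change of that size is a fitted value and no bound, since the reads behind it are not known. Exons of Aldh and Shawl share 0 bases in the annotation. The library kit keeps strand, but whether the counting used it is not given in the sources used here. Counts over exons alone would keep the genes apart in this annotation even without strand. Counts over introns or whole gene spans without strand would not, and which was counted is not given. In the authors' deposited table Shawl averaged 2.43 CPM and Aldh 147 CPM, so most reads of Aldh were not also counted under Shawl. The listed genes directly next to Aldh, CR43865 and CG4438, both had a likelihood ratio of 0 in the authors' deposited table.

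More called genes stood on one side of Aldh, in a stretch looked at after the values were seen. Because the stretch was picked for its calls, no share of called genes is drawn from it. Cks30A, whose product binds Cdk1 and is needed in female meiosis, was at 1.44 (implied SE 0.43) and 7.17 log2 CPM in the authors' deposited table, close to Aldh in both level and size of change. Ggamma30A, a G protein gamma subunit, was at -4.85 in the authors' deposited table (adjusted p = 1.1e-06), at a low average of -1.31 log2 CPM. The glutamate transporter gene Eaat1, between Cks30A and Shawl, was at -0.29 in the authors' deposited table and was not called. On the far side of Aldh, 0 of 9 tested genes were called by the authors' likelihood ratio test among the 10 listed next, and 1 of them, Mco1, a multicopper oxidase gene, had an unadjusted p under 0.05 in the authors' deposited table, at -0.57. The nearest listed gene on either side, the window planned, held 0 calls at every locus. At Aldh both of these genes had a likelihood ratio of 0, so no call was possible there. Shawl, which encloses Aldh, is listed 2 places before it and fell outside that window. Over 10 listed genes on either side, a window chosen after the values were seen, 0 of 19 tested neighbours of Aldh-III were called. The same window gave 0 of 11 for Adh and 0 of 19 for Fdh, all from the authors' deposited table. With 5.1% of all tested genes called, counts of 0 in windows of this size are near the background. They are not set against the calls around Aldh, and the difference between the loci was not tested. Whether the called neighbours of Aldh differ together with it was not tested, and without values per sample the part of any single library in it cannot be seen. As the strain backgrounds are not given, a difference between the fly lines at this locus, Aldh included, cannot be told apart from a difference due to InR-DN.

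**Figure D4:**
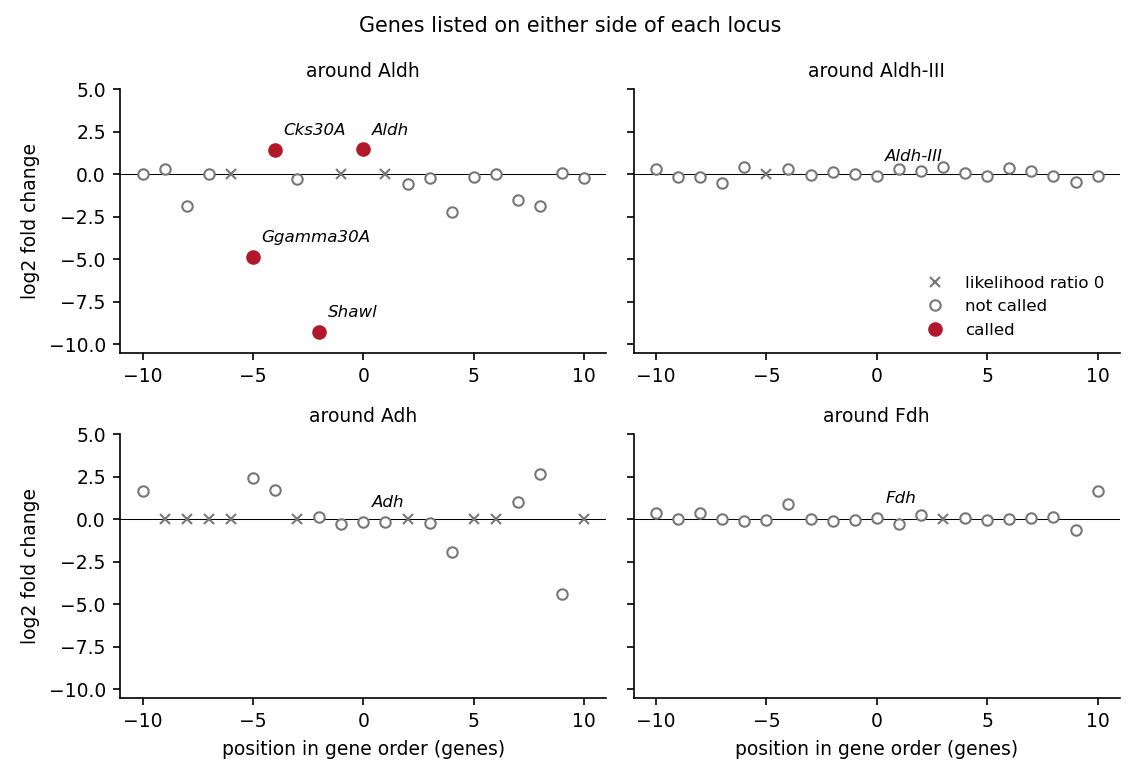
Log2 fold changes in the authors' deposited table (y axis) of the listed genes up to 10 places before and after each locus in chromosome order (x axis, the named gene at 0), with called genes in red, uncalled genes as open circles and genes with a likelihood ratio of 0 as crosses. Around Aldh, Cks30A at 1.44 lies on the positive side and Ggamma30A at -4.85 and Shawl at -9.27 on the negative side, while the other 3 panels hold no called gene. The window was chosen after the values were seen, and a panel without a call is near the background share.

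Adh likewise lies in an intron of a larger gene, osp (outspread), on the opposite strand in all 4 annotated osp transcripts, and their exons share 0 bases. For osp the log2 fold change was 0.16 per the authors' deposited table (implied SE 0.20, adjusted p = 1). Regulators known to act at the Adh gene were likewise without a call, 0 of 6 tested by the authors' likelihood ratio test, with 0 at an unadjusted p under 0.05. In the authors' deposited table they ranged from -0.07 for Adf1, which binds the Adh promoter, to 0.42 for slbo, the fly C/EBP. The GATA factor gene srp was at 0.24 and ftz-f1, a nuclear receptor gene with the highest average of the 6, at 0.16 in the authors' deposited table.

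The wider lists of enzymes for alcohols and aldehydes held no called gene. These lists were chosen and do not hold every gene of each family, so calls among unlisted relatives were not looked for. Across 40 tested enzyme and cofactor genes in 6 groups, 0 were called by the authors' likelihood ratio test, against 5.1% of all tested genes. An unadjusted p under 0.05 was found for 5 of the 40, or 12.5%, against 11.4% of all tested genes in the authors' deposited table, a share near the background. The median log2 fold change of the 40 was 0.09, against 0.03 over all tested genes. For 28 of the 40 the interval excluded a 2-fold change of either sign. The 8 tested genes with an average log2 CPM under 0 were all among the rest.

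Among the other listed aldehyde dehydrogenases, 0 of 9 were called, with a median of 0.30 on the log2 scale per the authors' deposited table. Signs were positive for 7 and negative for 2, where 7311 of 13080 tested genes were positive. Of the positive ones, P5CDh2, CG8665 and CG6661 had low averages of -3.04, -0.41 and 0.20 log2 CPM. Their implied SE were 1.27, 0.54 and 0.70, so little can be read from their signs. CG7470, the pyrroline-5-carboxylate synthase of proline synthesis, had 0.81 (implied SE 0.29) and the smallest p of the group, an adjusted p of 0.086, per the authors' deposited table. P5CDh1, which acts in proline breakdown and had the highest average of the 9 at 6.76 log2 CPM, was at 0.16 in the authors' deposited table. CG31075, an uncharacterised aldehyde dehydrogenase, was at 0.30 (implied SE 0.22, adjusted p = 0.93) and CG17896, the methylmalonate-semialdehyde dehydrogenase, at -0.04 in the authors' deposited table. The succinic semialdehyde dehydrogenase gene Ssadh had 0.07 per the authors' deposited table. Reads shared between related genes of the family were not excluded by anything in the sources used here.

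The 4 other listed zinc or iron alcohol and polyol dehydrogenases gave 0 calls in the authors' likelihood ratio test, and 0 had an unadjusted p under 0.05. Sodh-2, a sorbitol dehydrogenase gene that lies 2 listed genes from Fdh and has the highest average of the 4, was at 0.26 per the authors' deposited table (implied SE 0.30). Of the listed short-chain dehydrogenases, a part of a larger family, 0 of 7 tested were called and 1 had an unadjusted p under 0.05. That gene, CG18814, was at -2.68 per the authors' deposited table (implied SE 0.96, adjusted p = 0.098), at a very low average of -2.92 log2 CPM. The mitochondrial hydroxyacyl dehydrogenase gene scu, with the highest average of the 7, was at 0.08 in the authors' deposited table. Fbp2, a fat body relative of Adh that stands 3 listed genes from Aldh on 2L, was at -0.25 (implied SE 1.21) per the authors' deposited table, so that little can be read from it. Pdh, the photoreceptor dehydrogenase, had a likelihood ratio of 0 in the authors' deposited table.

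Aldehyde oxidases and the genes that make their molybdenum cofactor gave 0 calls in 8 by the same test. The lowest p among them was that of ry, the xanthine dehydrogenase gene rosy, at -0.73 per the authors' deposited table (implied SE 0.36, unadjusted p = 0.040, adjusted p = 0.42). The cofactor gene cin had the highest average of the 8 and was at 0.06 in the authors' deposited table. Of 7 aldo-keto reductases 0 were called and 2 had an unadjusted p under 0.05, CG12766 at 1.39 and CG6083 at 3.63 per the authors' deposited table (adjusted p of 0.50 and 0.23). Averages of both were low, at -2.85 and -2.98 log2 CPM in the authors' deposited table. CG6084, the aldo-keto reductase gene with the highest average, 7.80 log2 CPM, was at -0.21 in the authors' deposited table.

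Genes that take up the products of these enzymes held no call. The acetyl-CoA synthetase gene AcCoAS, which uses acetate, was at 0.09 per the authors' deposited table (implied SE 0.30, adjusted p = 1). ATPCL, the ATP citrate lyase, had the highest average of the 5 genes at 7.91 log2 CPM and was also at 0.09 in the authors' deposited table, and catalase (Cat), which removes peroxide, was at 0.10. The folate enzyme genes pug and Nmdmc, which carry formate units onward, had 0.08 and 0.21 on the log2 scale per the authors' deposited table. By the authors' likelihood ratio test 0 of the 5 were called, 0 had an unadjusted p under 0.05, and no interval reached a 2-fold change.

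Midgut and Malpighian tubule markers changed in the same table, with opposite signs, while most markers of other tissues were not called. The marker lists were chosen with earlier results of these data known, so their counts of calls are a description and not a test. All 11 midgut markers were called with positive signs, where 5.1% of all tested genes were called in either direction. Their median log2 fold change was 7.25, with a range from 2.29 to 8.55 in the authors' deposited table. Their averages together came to 102 CPM, not scaled to gene length. Malpighian tubule markers went the other way: 5 of 6 were called, all negative, with a median of -2.92 in the authors' deposited table. Uro, the urate oxidase gene of the tubule, was at -4.38 and the inward rectifier channel gene Irk3, which was not called, at -0.58 in the authors' deposited table. Fat body markers had 2 calls in 11, the larval serum protein genes Lsp2 at 3.73 and Lsp1beta at 2.71 in the authors' deposited table, both positive. All 11 had a positive sign, with a median log2 fold change of 0.53. Signs were also positive for all 6 oocyte markers, with a median of 0.11. Neither the 8 follicle cell markers nor the 6 oocyte markers held a call by the authors' likelihood ratio test, and 0 of them had an unadjusted p under 0.05. Counts of 0 calls in lists of this size are near the share over all tested genes. The part of other tissues in the Aldh difference was not tested. Adh, which fat body and gut are known to express strongly, was at -0.14 in the authors' deposited table. In pooled material, fewer cells of a type and less RNA per cell cannot be told apart.

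**Figure D5:**
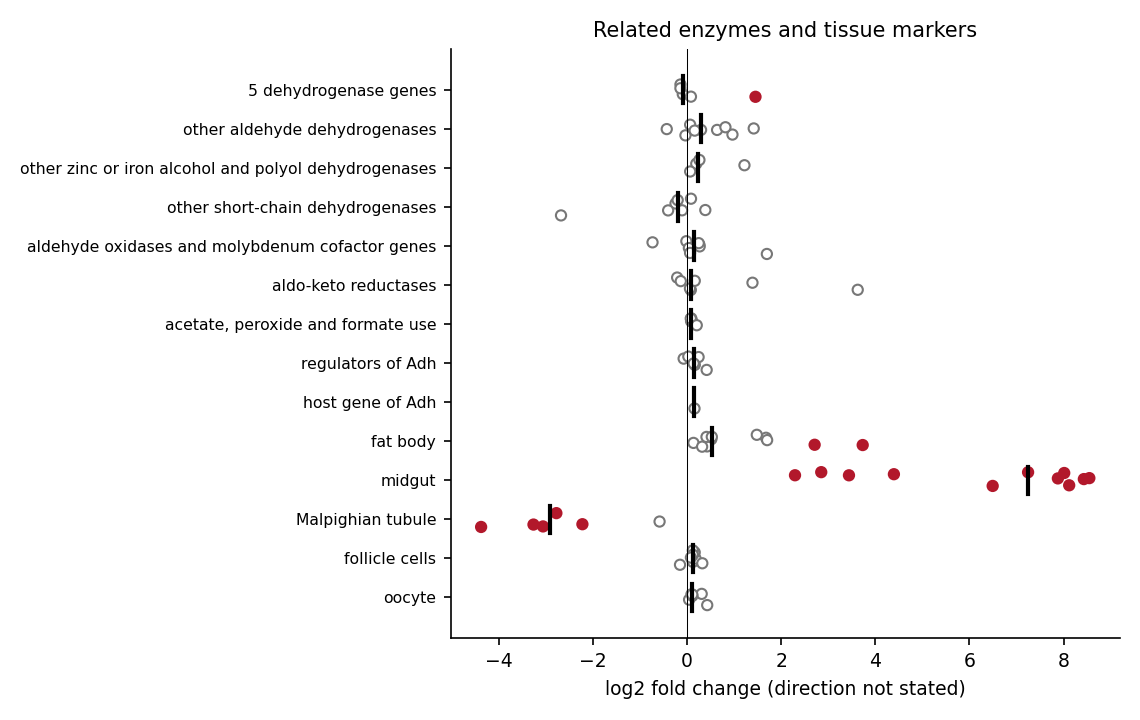
Log2 fold changes in the authors' deposited table (x axis) of the 5 dehydrogenase genes, of related enzymes and regulators, and of tissue markers, 1 point for each tested gene, red where called and open where not, with the median of each group as a black bar. Aldh is the single red point among the enzyme groups, all 11 midgut markers are red on the positive side and 5 of 6 tubule markers on the negative side.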

How the data were processed

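FastQC, Bowtie and TopHat were used, per the submitters' processing notes, which give no versions. Build, annotation and read counter are not stated in the sources used here. Per the labels, RNA was selected by its polyA tail, and yet the kit they name is a stranded one for total RNA. Per the file headers, the authors' deposited table lists for each gene the log2 fold change with the log2 CPM average, the likelihood ratio (a score) and its p-value, before and after adjustment, and its title names a likelihood ratio test of edgeR. No values per sample were analysed here, so no gene was tested anew, and the count test foreseen for a count table was replaced by the authors' adjusted p, called under 0.05. Depth limits precision through the implied SE alone.

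The deposited p-values differed from the chi-square tail of the score with 1 degree of freedom by at most 6.4e-15. The implied SE is the size of the log2 fold change over the root of the score, for scores above 0.0001. Tissue and enzyme lists and the 5 genes were chosen with earlier results of these data known. The text names all 5 genes, and from each enzyme or regulator list the called genes, those with an unadjusted p under 0.05 and the one with the highest average. It also names called genes near the level of Aldh and the nearest listed genes of Aldh, and further genes of a list as examples. Names were matched to RefSeq Release 6 (14707 of 14862) for gene order, and exons were read from Ensembl 115. As the build is unknown, coordinates are left out. P5CDh2 and CG6661, first taken as names of 1 gene, were kept as separate genes, and antdh was not analysed here. Alternatives were another set of genes in the adjustment, Bonferroni adjustment, a threshold of 0.01 and centring on the median. Protein and promoter sequences were not used here. The software was pandas 2.3.3 and scipy 1.17.1 under Python 3.11.15, with figures from matplotlib 3.10.9.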

Additional observations from a re-analysis of the deposited data

How the results depend on the processing

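Of the 5 alternatives run, 4 changed the adjustment or the threshold and left fold changes as deposited, and centring on the median left p-values as deposited. Under those 4, no dehydrogenase gene crossed the threshold, and under centring none changed sign. Aldh had adjusted p of 5.7e-12 over genes with a likelihood ratio above 0, 5.6e-12 over genes with an average log2 CPM of 0 or more and 6.9e-10 after Bonferroni adjustment, and its log2 fold change was 1.42 relative to the median of tested genes. The 47 related genes, regulators and osp included, gave 0 calls under each of the 5 alternatives. For genes not called as deposited, Bonferroni adjustment, the stricter threshold and centring could not have added a call. Only adjustment over another set of genes could have done so. The same limit holds for the dehydrogenase genes without a call. By the authors' likelihood ratio test Aldh had an unadjusted p of 4.6e-14, too small for any of the 4 to remove its call. Centring by a median of 0.03 could flip no sign either, as the smallest change was 0.08, for Fdh. Counts over all genes moved more. Against 667 calls as deposited (342 positive, 325 negative), 344 genes (209 positive, 135 negative) were called when those below an average log2 CPM of 0 were left out, which removes genes from the test by construction, and 294 (141 positive, 153 negative) after Bonferroni adjustment. Extending the neighbourhood of Aldh to 10 listed genes on either side, an alternative chosen after seeing the data, brought 3 called genes where the nearest listed genes gave 0. Those nearest genes had a likelihood ratio of 0 and could not have been called.

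No paired analysis was possible because values of single samples were not in hand, and no replicate was left out for the same reason. Precision rests on the implied SE, the part of any 1 library is unknown, and so is the direction of the fold changes.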
